A study of Mus musculus with 8 samples.

Results

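AP-1 and early response factors are transcription factors that T cells switch on within a short time of a stimulus. The members described here are 10 genes, found by symbol among the 19703 genes of the deposited table: Fos and Fosl2, Jun, Junb and Jund, Egr1 and Egr2, and Nr4a1, Nr4a2 and Nr4a3. Each of the 10 had 1 row and passed the filter on low values, a mean normalized count of at least 10, which left 11083 genes for testing. A normalized count is the number of reads of a gene divided by 1 size factor per library.

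The FcCD70 group and the untreated group are both FOXP3-expressing regulatory T cells (Tregs) of FOXP3-GFP reporter mice (titled WT, strain Foxp3-GFP). Both had beads carrying antibodies to CD3 and CD28 together with the cytokines IL6, IL1B and IL23, and mRNA was sequenced on day 6. Soluble CD70 (FcCD70), which binds the costimulatory receptor CD27, was present in the FcCD70 cultures and absent from the untreated ones. Each kind has 4 labelled samples, of which those analysed here by their own column are 7: the FcCD70 libraries numbered 1 to 3 and the untreated libraries numbered 1 to 4. Title and treatment field contradict each other for all 8 samples. Groups here were taken from the titles, which match the column names, so each direction holds only if the titles are right. Whether different mice gave the replicates is not stated, and p-values then reflect only the spread among these libraries, possibly a technical one. The comparison asks what CD27 signalling does to Tregs under conditions that favour the Th17 fate.

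AP-1 is a dimer of a JUN protein with a FOS, JUN or ATF protein, and it is fed by the MAP kinases that the T cell receptor and CD28 activate. FOS is known for its brief pulse of expression after a stimulus, JUND for its steady expression in resting cells. EGR1 and EGR2 are zinc finger factors downstream of the same kinases, and in T cells EGR2 is known for its part in limiting activation. The NR4A proteins are nuclear receptors whose genes follow T cell receptor signal strength, and in Tregs they are known for supporting Foxp3 expression.

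The bases upstream of the annotated RefSeq start sites (GRCm38.p6) of 3 members of the NR4A family and 3 of the AP-1 family are shown. The members of these families differed in direction between libraries, as described below. Capitals mark TGACG on either strand, the core of the cAMP response element that CREB and ATF proteins read, and in Jun the 8-base variant AP-1 site TGACATCA. Each sequence runs 5′ to 3′ on the gene's strand and stops before the first exon base it meets in GENCODE M21.
Nr4a1, chr15:101266596-101266845, plus strand: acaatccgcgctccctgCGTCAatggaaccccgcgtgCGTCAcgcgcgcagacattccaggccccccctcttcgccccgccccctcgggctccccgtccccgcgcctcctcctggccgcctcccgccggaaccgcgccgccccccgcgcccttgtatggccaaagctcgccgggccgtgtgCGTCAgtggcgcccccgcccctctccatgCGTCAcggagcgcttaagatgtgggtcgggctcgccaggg
Nr4a2, chr2:57124004-57124253, minus strand: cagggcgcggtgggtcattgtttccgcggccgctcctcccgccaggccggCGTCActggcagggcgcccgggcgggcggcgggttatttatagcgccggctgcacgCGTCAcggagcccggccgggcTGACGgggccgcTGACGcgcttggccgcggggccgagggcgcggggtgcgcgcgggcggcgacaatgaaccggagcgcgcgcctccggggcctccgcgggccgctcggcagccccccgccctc
Nr4a3, chr4:48045055-48045152, plus strand: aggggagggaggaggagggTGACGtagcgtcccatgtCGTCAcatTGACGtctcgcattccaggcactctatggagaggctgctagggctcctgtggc
Fos, chr12:85473640-85473889, plus strand: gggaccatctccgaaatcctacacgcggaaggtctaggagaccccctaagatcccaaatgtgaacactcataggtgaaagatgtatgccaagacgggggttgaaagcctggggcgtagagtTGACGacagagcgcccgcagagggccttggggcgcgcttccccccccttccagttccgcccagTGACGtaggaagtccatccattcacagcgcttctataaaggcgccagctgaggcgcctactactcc
Jun, chr4:95052223-95052472, minus strand: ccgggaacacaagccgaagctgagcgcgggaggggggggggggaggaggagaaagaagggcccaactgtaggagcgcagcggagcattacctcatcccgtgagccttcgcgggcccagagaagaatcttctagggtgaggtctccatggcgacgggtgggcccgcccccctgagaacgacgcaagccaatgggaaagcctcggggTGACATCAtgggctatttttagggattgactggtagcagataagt
Junb, chr8:84978749-84978998, minus strand: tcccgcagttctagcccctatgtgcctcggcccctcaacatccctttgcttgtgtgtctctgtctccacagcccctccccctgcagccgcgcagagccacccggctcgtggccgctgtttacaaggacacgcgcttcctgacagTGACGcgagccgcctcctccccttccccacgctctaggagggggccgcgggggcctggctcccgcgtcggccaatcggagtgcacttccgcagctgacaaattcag

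Start sites of 9 of the 10 members were matched in the RefSeq table. Egr1 had none there, so it was not searched. Within the 250 bases before the start, TGACG on either strand occurred 4 times in each of Nr4a1, Nr4a2 and Nr4a3, 2 times in Fos, 1 time in Junb and 0 times in Jun, Jund and Fosl2. Egr2 has 5 windows from different start sites, of which 3 held 2 matches and 2 held 0. Those 3 begin at 67537619, 67537620 and 67537680 and share most of their bases, so their matches are not separate counts. For Nr4a3 only the 98 bases before the first exon base are printed, which hold 3 of its 4 matches. The Fosl2 window has 0 bases before the first exon base, so it begins in exon sequence. The Jund window ends at chr8:70697738, short of the gene start at 70698949 in GENCODE M21. The windows are therefore not all alike in position. Of 32851 start sites in the table, 17.8% held at least 1 such match and 0.137% held 4 or more. The full palindrome TGACGTCA, which contains TGACG on both strands (1.55% of start sites), and the AP-1 site TGANTCA (6.75%) were in no window of the 9 members, and TGACATCA (2.93%) was in that of Jun only among the members. The EGR site GCGNGGGCG on either strand (4.70% of start sites) occurred 1 time each in the windows of Nr4a1, Nr4a2 and Fosl2. The NFAT core GGAAA (55.6% of start sites) was in windows of Jun, Egr2 and Nr4a2. The SRF CArG box (1.47%) was in windows of Egr2 only among the 9 members searched. Bases further than 250 before the start were not searched for any motif. These matches describe letters in the windows. They were counted after the expression values had been seen.

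The FcCD70 libraries held 18183470 to 23359331 reads assigned to genes, and the untreated libraries held 18159685 to 23527899. The FcCD70 library numbered 2 stood apart: its median absolute log2 gap to the other libraries was 0.266, against 0.102 to 0.168 for the other 6. Results are therefore also given without it. The Treg and CD4 markers (7 genes) summed to 2847 to 3598 RPM (reads of a gene scaled to a common library total) in the FcCD70 libraries and 3327 to 3606 RPM in the untreated libraries, with the lowest Foxp3 level, 136 RPM, in the FcCD70 library numbered 2, against 234 to 330 RPM in the other 6. Of 8 listed myeloid markers, the 6 that could be matched to 1 row summed to at most 1.15 RPM. Lyz2 and Itgam were not among them, so this sum does not cover those 2. S100a8, S100a9 and the NK gene Ncr1 had 0 reads in all 7 libraries, which allows up to 0.128 to 0.165 RPM per library. The B cell list as a whole summed to 1605 to 1874 RPM, nearly all of it Ighm. These limits cover counting error only.

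Levels between genes were compared per kilobase of exon as RPKM (RPM divided by the length of the gene's exons in kilobases). Jund averaged 56.8 ± 21.9 RPKM and Junb 48.1 ± 11.8 RPKM (SD, n = 7 libraries), which placed them above 92.8% and 91.1% of the genes tested. Jun followed with 10.5 ± 1.71 RPKM, above 56.2% of the genes tested. Jund was above Junb in 4 of 7 libraries, so their order was within the spread, while the ranges of Junb and Jun did not overlap and their means differed 4.56-fold. Nr4a1 and Fosl2 were alike, at 5.86 ± 1.65 and 5.68 ± 0.977 RPKM. Egr1 had 3.31 ± 0.824 RPKM and lay above Egr2 in 7 of 7 libraries. Egr2 (1.40 ± 0.529), Nr4a3 (1.19 ± 0.423) and Fos (1.19 ± 0.191 RPKM) overlapped. Nr4a2 was lowest at 0.388 ± 0.205 RPKM, below Fos in 7 of 7 libraries and above 7.38% of the genes tested. The Fos counts rest on 40 to 76 reads per library.

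**Figure D1:**
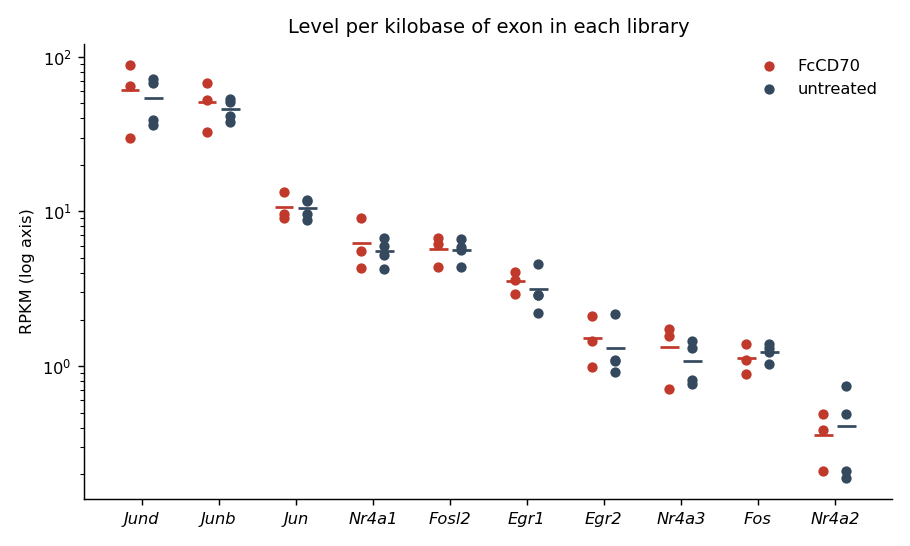
RPKM of each gene in each library on a log axis, with FcCD70 libraries (red) left of untreated libraries (dark) and a line at each group's mean. Jund and Junb stand highest, with means of 56.8 and 48.1 RPKM over 7 libraries, and Nr4a2 lowest, with 0.388 RPKM.

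None of the 10 genes passed the test between the FcCD70 and the untreated libraries. In the limma fit over 11083 genes with the replicate number as a block, 0 members and 0 genes in all (0%) passed a Benjamini-Hochberg adjusted p of 0.05. Without adjustment 188 genes (1.7%) and 0 members lay under 0.05, and the adjusted p was 0.9998 for each member. The log2 fold changes, on the log2(normalized count + 1) scale, ran from -0.30 (Nr4a2) to 0.26 (Jund), with 8 above 0, 2 below and a median of 0.13, against -0.00351 over all genes tested. FcCD70 and untreated values overlapped for all 10 genes, where 1.34% of all genes tested lay wholly above and 1.18% wholly below. In bulk RNA, a change in the number of expressing cells and one in RNA per cell cannot be told apart.

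The FOS genes lie in GRCm38 with Fos (ENSMUSG00000021250) at chr12:85473890-85477273 on the plus strand and Fosl2 (ENSMUSG00000029135) at chr5:32135801-32157842 on the plus strand. Fos had 41.4, 52.8 and 67.0 normalized counts in the FcCD70 libraries numbered 1 to 3, against 61.6, 57.5, 67.0 and 49.6 in the untreated libraries numbered 1 to 4. The FcCD70 library numbered 1 was the lowest of the 7, and the log2 fold change was -0.23 (95% interval -0.95 to 0.50). Fosl2, which encodes the FOS-related factor FRA2, had 1185, 860 and 1348 in the FcCD70 libraries and 1280, 845, 1128 and 1162 in the untreated libraries. Both libraries numbered 2 were low for Fosl2, whatever the treatment. Its log2 fold change was 0.06, with the narrowest interval of the 10 genes, -0.25 to 0.36.

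The JUN genes are Jun (ENSMUSG00000052684) at chr4:95049034-95052222 on the minus strand, Junb (ENSMUSG00000052837) at chr8:84974484-84978718 on the minus strand and Jund (ENSMUSG00000071076) at chr8:70698949-70700616 on the plus strand. Jun, the main activating partner in AP-1, had 575, 627 and 874 normalized counts in the FcCD70 libraries and 611, 557, 773 and 764 in the untreated libraries (log2 fold change 0.09, 95% interval -0.24 to 0.41). Junb, a JUN protein that pairs with BATF in Th17 cells, had 1503, 2461 and 3221 in the FcCD70 libraries, against 1904, 1740, 2528 and 2384 in the untreated libraries (0.17, -0.21 to 0.55). The highest and the lowest Junb values were both from FcCD70 libraries. Jund, often a brake on growth, had 993, 2199 and 3048 in the FcCD70 libraries, against 1305, 1198, 2461 and 2314 in the untreated libraries (0.26, -0.20 to 0.73). Jund had the smallest unadjusted p of the members (0.233). Of its gene model 877 of 1668 exon bases are also exon of Gm11175 on the other strand. The overlap is 232 of 3189 bases for Jun and 173 of 2301 for Junb, and the strand setting of the counting is not given in the sources used here.

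The EGR genes are Egr1 (ENSMUSG00000038418) at chr18:34859823-34864984 on the plus strand and Egr2 (ENSMUSG00000037868) at chr10:67535475-67542188 on the plus strand. Egr1 had 323, 374 and 270 normalized counts in the FcCD70 libraries and 257, 410, 204 and 265 in the untreated libraries (log2 fold change 0.20, 95% interval -0.22 to 0.62). Egr2 had 98.4, 146 and 68.8 in the FcCD70 libraries, against 146, 73.7, 64.1 and 74.9 in the untreated libraries (0.17, -0.57 to 0.91). For Egr2, 1 library of each group reached 146, number 2 with FcCD70 and number 1 untreated.

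The NR4A genes are Nr4a1 (ENSMUSG00000023034) at chr15:101254269-101274795 on the plus strand, Nr4a2 (ENSMUSG00000026826) at chr2:57106830-57124003 on the minus strand and Nr4a3 (ENSMUSG00000028341) at chr4:48045153-48086447 on the plus strand. Nr4a1 had 385, 646 and 310 normalized counts in the FcCD70 libraries, against 421, 470, 305 and 376 in the untreated libraries (log2 fold change 0.12, 95% interval -0.28 to 0.51). The single high Nr4a1 value was that of the FcCD70 library numbered 2. Nr4a3 had 206, 192 and 87.3 in the FcCD70 libraries and 174, 155, 94.2 and 99.2 in the untreated libraries (0.15, -0.37 to 0.66). Nr4a2 had 31.1, 40.4 and 17.6 in the FcCD70 libraries, against 60.5, 39.4, 17.5 and 15.7 in the untreated libraries (-0.30, -1.29 to 0.70), from 18 to 55 reads per library. Nr4a3 and Nr4a2 were low in every library numbered 3 or 4, whichever group it belonged to.

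**Figure D2:**
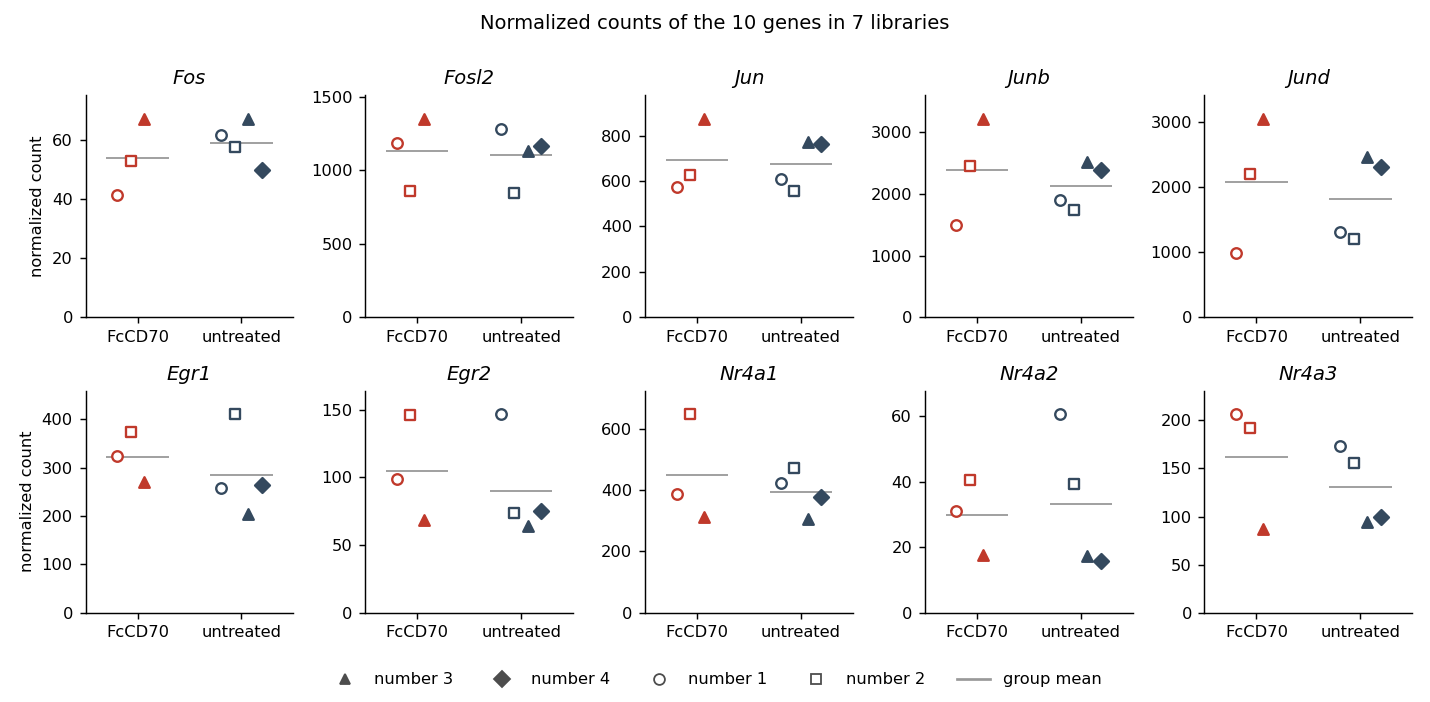
Normalized counts of the 10 genes, FcCD70 libraries left of untreated libraries; filled markers are the libraries numbered 3 and 4, open markers those numbered 1 and 2, and the grey line is the group mean. The groups overlap in every panel, while for Jun, Jund, Nr4a1, Nr4a2 and Nr4a3 the filled and open markers do not.

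The same-numbered pairs did not move together. Between the libraries numbered 1, 8 of 10 members were lower with FcCD70 and the median difference was -0.23 (log2). Between those numbered 2, 8 were higher and the median was 0.24, and between those numbered 3, 9 were higher and the median was 0.14. The medians of all genes tested were -7.36e-05, -0.00402 and 0.00096 for these pairs. The FcCD70 library numbered 4 has no column and was rebuilt from the authors' mean of 8 libraries. Against the untreated library numbered 4 it had 5 members higher and 5 lower (median 0.016, and 0.0052 over all genes tested). No member moved in 1 direction in all 3 pairs numbered 1 to 3 (Fos was at 0.000298 between those numbered 3), as 9.03% (higher) and 9.61% (lower) of all genes did. The largest single difference with FcCD70 was 0.98 for Egr2 between the libraries numbered 2, beside -0.57 between those numbered 1. For Jund the pairs differed by -0.39, 0.88 and 0.31. With the GC and length trend removed (a step chosen after seeing the data), Jund differed by 0.58 between the libraries numbered 2. Its limma log2 fold change was then 0.15, while the Egr2 difference between the libraries numbered 2 stayed at 0.98.

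**Figure D3:**
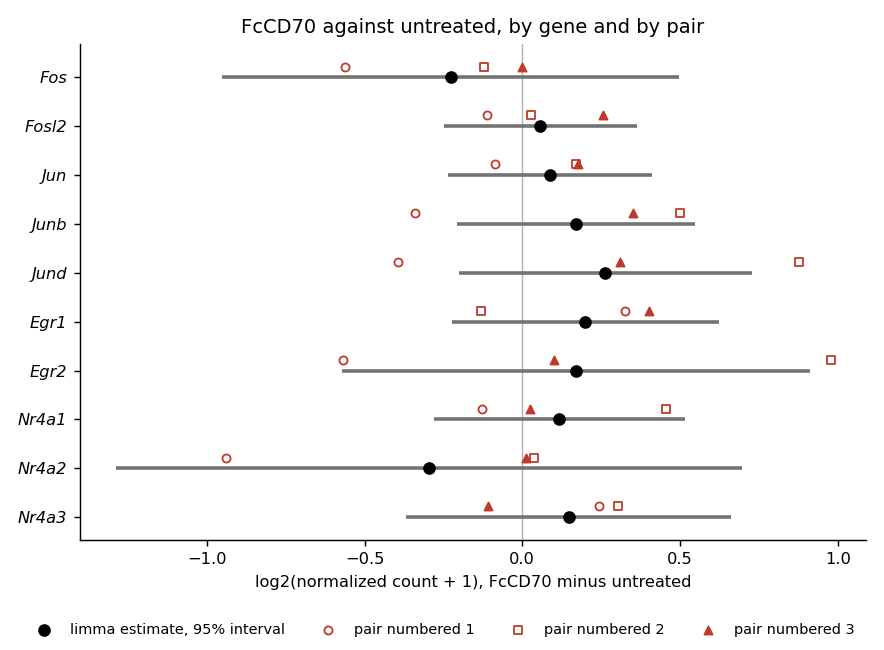
Log2 fold change of FcCD70 minus untreated for each gene, as the limma estimate with its 95% interval (black, grey). Red markers are the differences within the pairs numbered 1 to 3. Every interval includes 0, and the pairs lie on both sides of 0 for all 10 genes, though Fos in pair 3 is at 0.000298.

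Without the FcCD70 library numbered 2, with the block, 0 members and 20 genes (0.18%) passed (smallest adjusted p of a member 0.847, Egr1, in limma). Without both libraries numbered 2 it was 0 members and 0.171% of genes. The log2 fold change was then -0.04 for Jund, 0.00439 for Junb, -0.23 for Egr2 and -0.05 for Nr4a1. It was 0.36 for Egr1, 0.07 for Nr4a3, 0.07 for Fosl2, 0.04 for Jun, -0.28 for Fos and -0.46 for Nr4a2 in the same fit. Without both libraries numbered 1, the log2 fold change of Jund was 0.59 (95% interval 0.13 to 1.06; adjusted p = 0.99958 in limma). Without the FcCD70 library numbered 3 and without the block, Jund had -0.22 and Junb -0.14. In the authors' deposited table, over 8 libraries, the members' log2 fold changes, turned to FcCD70 minus untreated, ran from -0.22 (Nr4a2) to 0.27 (Jund). The smallest unadjusted p there was 0.1 for Jund, and the adjusted p was 0.99999 for each member, with DESeq2. DESeq2 on reads recovered from the 7 libraries called 0 members and 1 gene (0.00902%).

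Between the numbers, the 10 members split by family. The libraries numbered 3 and 4 had higher mean log2 counts than those numbered 1 and 2 for 5 of 5 FOS and JUN genes and lower ones for 5 of 5 EGR and NR4A genes, where 52.1% of all genes tested were higher. The same signs were found with TMM scaling, with the GC and length trend removed (a step chosen after seeing the data), without the FcCD70 library numbered 2, and with the rebuilt FcCD70 library numbered 4. Among the untreated libraries alone Fos had -0.05 and the other 9 kept their sign. AP-1 relatives and dimer partners outside the members did not follow the split. Of 9 tested, 3 were higher and 6 lower in the libraries numbered 3 and 4 (median log2 difference -0.06). The labels do not name these sets of numbers. They were formed after the values had been seen, so the difference is a description with no test. Joining the FOS with the JUN genes and the EGR with the NR4A genes was not planned either.

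Jund averaged 2608 ± 388 normalized counts in the libraries numbered 3 and 4 (SD, n = 3) and 1424 ± 533 in those numbered 1 and 2 (SD, n = 4), a log2 difference of 0.93. Jun averaged 804 ± 61.0 and 592 ± 32.0 in these sets, a log2 difference of 0.44. For both genes every library numbered 3 or 4 lay above every library numbered 1 or 2. Junb had a difference of 0.52 but overlapped, because the FcCD70 library numbered 2 reached 2461 where the untreated library numbered 4 had 2384. Fosl2 and Fos overlapped as well, with 0.24 and 0.20.

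Nr4a2 averaged 16.9 ± 1.10 normalized counts in the libraries numbered 3 and 4 (SD, n = 3) and 42.8 ± 12.5 in those numbered 1 and 2 (SD, n = 4), a log2 difference of -1.25. Nr4a3 averaged 93.6 ± 5.98 and 182 ± 22, a difference of -0.95, and Nr4a1 330 ± 39.5 and 481 ± 115, a difference of -0.52. All 3 lay wholly lower in the libraries numbered 3 and 4. For Nr4a1 the gap was narrow, between 376 (untreated, number 4) and 385 (FcCD70, number 1). Egr2 and Egr1 had -0.68 and -0.46 and overlapped.

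In all, 2 members lay wholly above (Jun, Jund; 11.1% of all genes tested) and 3 wholly below (Nr4a1, Nr4a2, Nr4a3; 11.1%). The FcCD70 library numbered 4, rebuilt from the authors' mean, had 944 for Jun, 2823 for Jund, 348 for Nr4a1, 16.7 for Nr4a2 and 94.3 for Nr4a3, and with it the same 2 lay wholly above (10% of all genes tested) and the same 3 wholly below (9.96%). Without the FcCD70 library numbered 2, Junb also lay wholly above (3 members, 20.8% of all genes tested) and the 3 NR4A genes remained below (19.7%).

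**Figure D4:**
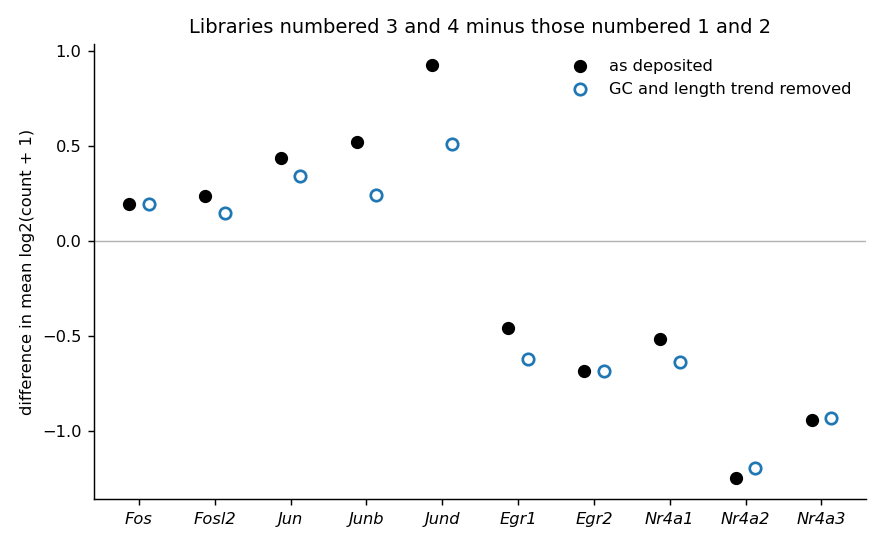
Difference in mean log2(normalized count + 1), libraries numbered 3 and 4 minus those numbered 1 and 2, as deposited (black) and after removing each library's trend on GC content and transcript length (open blue). FOS and JUN genes lie above 0 and EGR and NR4A genes below, from 0.93 (Jund) to -1.25 (Nr4a2) as deposited; among the untreated libraries alone, not drawn, Fos was at -0.05.

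The planned test of replicate number, an F test over all number terms in the same limma fit, called 15 of 11083 genes (0.135%) and 0 members. Without adjustment 889 genes (8.02%) and 5 members, Fosl2, Junb, Jund, Nr4a1 and Nr4a3, lay under 0.05. Jund had the smallest adjusted p, 0.206 (F = 9.64), then Nr4a3 with 0.378. Without the FcCD70 library numbered 2 the test called 6 members, namely Fosl2, Jun, Junb, Jund, Egr1 and Nr4a3, beside 16.5% of all genes, with 1 residual degree of freedom. Without both libraries numbered 2 it called 4 (Jun, Junb, Jund, Nr4a3) beside 16.3%. DESeq2, run on reads recovered for 7 libraries, called Jund (adjusted p = 0.00254) among 2.14% of all genes.

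Other measures moved with the numbers, and their part in the members' differences was not tested except where a value is given here. The libraries numbered 3 and 4 were deeper, with 21200214 to 23527899 reads against 18159685 to 19715108. The B cell list (7 genes) summed to 1605 to 1671 RPM there and to 1726 to 1874 RPM in the libraries numbered 1 and 2. The sums of the heat shock and handling stress list (9 genes) overlapped, at 1947 to 2075 RPM and 1939 to 2150 RPM. Most of each sum was Hsp90ab1, at 1320 to 1499 RPM. Of the 7 tested genes of that list, 6 had a higher mean log2 count in the libraries numbered 3 and 4 and 1 a lower one. Their median log2 difference was 0.12, against 0.011 over all genes tested, and 0 of them lay wholly above or wholly below. The sums of the Treg and CD4 markers also overlapped, at 3327 to 3550 RPM and 2847 to 3606 RPM. Of these 7 markers, however, 2 lay wholly above and 1 wholly below (Ctla4, log2 difference -0.39). Over all genes tested, 11.1% lay wholly above and 11.1% wholly below. GC-rich genes were higher in the libraries numbered 3 and 4: the median log2 difference was 0.559 over the 25 genes with at least 65% GC and -0.0971 over the 2901 under 45%. Jund has 67.1% GC and Junb 62.6%. With the trend on GC content and length removed, the difference of Jund was 0.51 and its sets overlapped, that of Junb was 0.24, and that of Jun was 0.34, the 1 member still wholly above (12.1% of all genes). Fosl2 then had 0.15 and Fos 0.19. Among the EGR and NR4A genes, at 47.9% to 57.3% GC, Nr4a2 had -1.20, Nr4a3 -0.93, Nr4a1 -0.64, Egr2 -0.68 and Egr1 -0.62, after the removal, and all 5 then lay wholly below, as did 11.6% of all genes.

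Genes around these factors did not pass the FcCD70 test either (0 of the members of each list, limma). Of 9 tested AP-1 relatives and dimer partners 4 were above and 5 below 0 (median log2 fold change -0.00568), and Atf2, a CREB-like partner of JUN, had the smallest p of the list (0.291) at a log2 fold change of 0.14. The 3 tested genes of the EGR and NAB list, NAB proteins being corepressors of EGR factors, had a median log2 fold change of -0.06, and Nab2, with the smallest p (0.643), had -0.06. Of 30 other early response genes 20 were above and 10 below 0, with a median of 0.10. Rgs2, a regulator of G protein signalling, had the smallest p of them, with 1997, 2397 and 914 normalized counts in the FcCD70 libraries, against 1785, 1118, 661 and 749 in the untreated libraries. Its log2 fold change was 0.58 (95% interval 0.18 to 0.98), it was higher with FcCD70 in each of the 3 pairs, with an unadjusted p of 0.00955 and an adjusted p of 0.9998 in limma. It was 0.31 without the FcCD70 library numbered 2 (with the block), and 1.13 without the FcCD70 library numbered 3 and 0.99 without the untreated library numbered 1 (no block).

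The MAP kinase, SRF and CREB genes (25 tested, 12 above and 13 below 0) had a median log2 fold change of -0.0065, and Crem, a cAMP-responsive factor, had the smallest p of the list (0.13) at a log2 fold change of 0.22, or 0.11 without the FcCD70 library numbered 2. The calcineurin and NFAT genes (9 tested, 3 above and 6 below 0) had a median of -0.08, and Ppp3ca, a catalytic calcineurin subunit, had the smallest p (0.142) at 0.21, or 0.09 without the FcCD70 library numbered 2. Known T cell targets of AP-1, EGR and NR4A factors (18 tested, 8 above and 10 below 0) had a median of -0.02, and Il2ra had the smallest p (0.115) at -0.26, or -0.15 without that library. Heat shock genes (7 tested) had a median of -0.05, and Hmox1 had the smallest p (0.191) at -0.36, or -0.11 without the FcCD70 library numbered 1 (no block). Treg and CD4 markers (7 tested) had a median of -0.03 and B cell markers (5 tested) of 0.02. Ms4a1, the B cell marker with the smallest p (0.0993), had -1.22, but -0.37 without both libraries numbered 1, -2.01 without both numbered 3 and -0.59 without the untreated library numbered 1 (no block). The 1 tested CD8 and NK marker, Cd8b1, had 0.22.

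By replicate number, the fit over all 7 libraries at the deposited scaling placed 0 genes of these lists past the threshold in limma. Only the gene with the smallest p by number in each list was followed through the alternatives. Among these genes, the fit without both libraries numbered 2 placed Jdp2, Rgs2, Rasgrp1, Tox2, Ctla4 and Cd74 past the threshold. That fit has 1 residual degree of freedom and placed 16.3% of all genes past it. Rgs2 passed in 6 of 13 alternatives. With all 7, the smallest p in each belonged to Jdp2 (adjusted p = 0.565, wholly lower in the libraries numbered 3 and 4), Nab2 (0.857), Rgs2 (0.124), Rasgrp1 (0.367), Nfatc2 (0.572), Tox2 (0.262), Hsph1 (0.796), Ctla4 (0.572), Cd74 (0.168) and Cd8b1 (0.965). Rgs2 averaged 775 ± 129 normalized counts in the libraries numbered 3 and 4 (SD, n = 3) and 1824 ± 535 in those numbered 1 and 2 (SD, n = 4). Tox2, an HMG box factor of stimulated T cells, averaged 397 ± 11 and 681 ± 89.7. Rasgrp1, which couples the T cell receptor to RAS, ran the other way with 8794 ± 593 and 5970 ± 726. None of the 3 overlapped between these sets, but they were named for their small p by number, and 11.1% of all genes lay wholly above and 11.1% wholly below. Of the lists they come from, 6 lay wholly above and 7 wholly below of 30 early response genes, 1 and 3 of 18 T cell targets, and 3 and 3 of 25 MAP kinase, SRF and CREB genes. In the AP-1 list that holds Jdp2, 2 lay wholly above and 1 wholly below of 9 tested.

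The genes whose log2 counts over the 7 libraries were most like those of the member with the highest mean normalized count in each family, by Pearson's r among 9563 protein-coding genes, are given as a description. For Fosl2 they were Hdac11 (r = 0.993), Zfp316 (0.952) and Gimap5 (0.950). For Junb they were Krtcap3 (0.990), Map2k2 (0.990) and Irf2bpl (0.988), for Egr1 BC055324 (0.988), Brcc3 (0.967) and Zfp2 (0.963), and for Nr4a1 Rfc4 (0.981), Cnih2 (0.980) and Yars (0.979). The points are 7 libraries that share replicate numbers and differ in depth, and no p is given.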

How the data were processed

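Read counts per gene are deposited after division by 1 size factor per library; this signal was made by the authors. The values show that the mean given beside it covers 8 libraries. Per the labels, a strand-marking TruSeq mRNA kit was used; the tools TopHat2, SAMtools, HTSeq and DESeq2 and the build GRCm38.p4 appear, without roles, per the submitters' processing notes. The log2 fold change, a score (the Wald statistic) and p-values are in the authors' deposited table from DESeq2 per the file headers. The values show that it is coded untreated minus FcCD70; signs were turned where printed. All values were whole multiples of 1 step per library (100% within 0.01 of a whole number), so reads were recovered. The FcCD70 sample numbered 4 has no column; its values (21031069 reads) were rebuilt from the mean for alternatives.

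As the values were not counts, limma (3.58.1, trend) was fitted to log2(value + 1) with a pseudocount of 1. The replicate number was a block because the authors' table is named as paired; untreated number 4 has no partner, which leaves 3 pairs and 2 residual degrees of freedom. Same-numbered deviations correlated at 0.381, -0.0502 and 0.562 across 9845 genes, so the numbers were not shown to pair. Members and lists were chosen with earlier results of these data known. Named genes are all members, the smallest p of each list for each test and the 3 genes most like the member with the highest mean normalized count in each family. RPKM used union exon lengths of GENCODE M21 (GRCm38). edgeR (4.0.16) and DESeq2 (1.42.0) were alternatives. On 5 simulated tables of 11083 genes limma recovered 224 of 250 genes changed 2-fold by FcCD70 and 89 of 250 changed 1.5-fold. It recovered 429 of 500 changed 2-fold between numbers. It also called 66 of 54415 genes not changed by FcCD70 and 114 of 54415 not changed between numbers. Only genes with a mean of at least 50 were changed, so Nr4a2 (mean 31.7) was not covered. Genes were drawn independently, with no outlying library and no GC trend, so these rates need not hold for the real libraries.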

Additional observations from a re-analysis of the deposited data

Results flagged for a closer look

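Egr2 had 1 high value among the untreated libraries, 146 normalized counts in the library numbered 1, against 64.1 to 74.9 in the other 3, a gap of 0.869 of the group's range. Ms4a1 was also high in that library, at 75.9 normalized counts against 15.5 to 20.02 (0.926 of the range). Cd8b1 was low in the untreated library numbered 2, at 110 against 168 to 176 (0.882 of the range). Each gap exceeded Dixon's 95% critical value for 4 samples, which chance exceeds in about 1 in 20 groups; the untreated group was examined for 26 genes.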

How the results depend on the processing

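The FcCD70 test called 0 members in all alternatives run, with adjusted p from 0.648 to 0.99999. Across all genes it called 0, but 1 with DESeq2, 20 without FcCD70 replicate 2 and 0 to 19 without 1 replicate number. The replicate number test called 15 genes, but 0 with no filter on low values, 2 with TMM, 0 with edgeR, 237 with DESeq2, 117 with the rebuilt library, 158 with the GC and length trend removed (chosen after seeing the data), 1827 without FcCD70 replicate 2 and 29 to 1805 without 1 number. It called 1 member with DESeq2, 6 without FcCD70 replicate 2 and 0 to 4 without 1 number. The causes were not tested; fits without number 1, 2 or 3 have 1 residual degree of freedom.

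With no replicate block the FcCD70 test called 0 genes and 0 members, and the log2 fold changes were -0.15 (Fos), 0.027 (Fosl2), 0.023 (Jun), 0.11 (Junb), 0.12 (Jund), 0.22 (Egr1), 0.23 (Egr2), 0.13 (Nr4a1), -0.021 (Nr4a2) and 0.26 (Nr4a3). No member reversed under another pseudocount, filter, scaling, tool or block. Some reversed when libraries were left out. With the block and without FcCD70 replicate 2, Jund had -0.0425, Egr2 -0.234, Nr4a1 -0.0517 and Cd8b1 -0.0882. Without 1 number, values ran from -0.0422 to 0.142 (Fosl2), -0.0425 to 0.592 (Jund), -0.234 to 0.539 (Egr2), -0.0517 to 0.241 (Nr4a1), -0.464 to 0.0252 (Nr4a2), -0.0882 to 0.456 (Cd8b1) and -0.141 to 0.00444 (Nab2). With no block, Fos had 0.0215 and Fosl2 -0.0186 without FcCD70 replicate 1. Egr2 had -0.0438, Nr4a1 -0.166 and Nab2 0.0417 without FcCD70 replicate 2. Fosl2 had -0.112, Jun -0.157, Junb -0.136, Jund -0.225 and Nr4a2 0.302 without FcCD70 replicate 3. Jun had -0.0211, Jund -0.0116 and Nr4a2 0.332 without untreated replicate 1. Fosl2 had -0.0958, Jun -0.0653, Jund -0.0528 and Nr4a2 0.129 without untreated replicate 2. Nr4a2 was not tested with a mean of at least 50, and at 18 reads in its lowest library it is the member most limited by depth.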
